A study of Mus musculus with 7 samples.

Results

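Integrins and laminins were examined in the prostates of Nkx3.1-/- mice that drank plain water or water with NAC (N-acetylcysteine), from which cells make the antioxidant glutathione. Members were taken by symbol alone: integrin alpha chains (Itga with a number or with D, E, L, M, V or X), integrin beta chains (Itgb with a number) and laminin chains (Lama, Lamb or Lamc with a number). Of the 18938 genes measured, 35 met this rule, namely 18 integrin alpha chains, 7 integrin beta chains and 10 laminin chains. Itgb4 bears such a name too and was not analysed here.

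Every mouse in both groups was homozygous null for Nkx3.1, a homeobox gene of the prostate, and was of a recombinant inbred B6/129 strain. From weaning at 3 weeks of age, vehicle mice received plain water and treated mice 5 mM NAC in the water for 13 weeks, and tissue was taken at 16 weeks of age. There were 3 vehicle arrays (replicates 1, 2 and 4) and 4 NAC arrays (replicates 1 to 4) of the Affymetrix Mouse Gene 1.0 ST type, and the authors had set aside 1 further vehicle array for its quality. Pups of a litter went to cages of either treatment, so cage and treatment cannot be told apart. The extraction protocol names the anterior prostate, whereas the tissue label says whole prostate. No array of wild-type mice was among those analysed.

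All values are log2 expression values as deposited, and a fold change is the NAC mean minus the vehicle mean on that scale, given with its standard error (SE). The arrays had medians between 7.12 and 7.16. Genes of prostate and epithelium were high on every array, with Pbsn between 12.63 and 12.95, Hoxb13 between 11.07 and 11.28 and Epcam between 11.62 and 11.72. NAC replicate 3 stood apart in genes of other tissues: a list of 5 lung genes lay 2.43 above its mean over the 7 arrays there and -0.45 to -0.35 from it on the others, and the surfactant gene Sftpc was at 10.51 against at most 5.26. Lists of adipocyte and skeletal muscle genes were also highest on that array, at 1.18 and 0.69 above their means, against at most -0.11 and -0.07 on the other arrays. Fold changes without this array are given below for the members that were highest or lowest on it. NAC replicate 1 stood apart in genes of the seminal vesicle, a gland beside the prostate: a list of 4 such genes lay at -1.34 from its mean there and between -0.51 and 0.63 on the other arrays. All 4 had a lower mean with NAC (median fold change -0.74), and for 2 of them the groups did not overlap. Itga6, Lama3, Itgam and Itgb2 were highest on NAC replicate 1, and the part of the seminal vesicle list in their values was not tested.

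Integrins are surface receptors made of an alpha and a beta chain that attach cells to the matrix or to other cells and carry signals in both directions across the membrane. Laminins are trimers of an alpha, a beta and a gamma chain and form the sheet of the basement membrane on which the epithelium rests. In the prostate epithelium, basal cells lie on this membrane and hold it through alpha 6 integrins, and the luminal cells are secretory. Leukocytes carry integrins of their own, built mainly on the beta 2 chain, with which they bind vessel walls and other cells.

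None of the 35 members had a limma adjusted p under 0.05 (Benjamini-Hochberg over all genes), and their smallest adjusted p was 0.827. Of all 18938 genes, 0 (0%) passed this threshold. With NAC, 20 members had a higher mean and 15 a lower one. This is 57.1% higher, beside 49.8% of all genes. Their median fold change was 0.01, beside -0.00 for all genes, and the values ran from -0.20 for Itgax to 0.45 for Itga5. At an unadjusted limma p under 0.05 there were 0 members higher with NAC, beside 1.89% of all genes, and 2 lower (Itga1 and Itgax), beside 2.53%. The values of the groups did not overlap for 0 members in the higher direction, beside 1.29% of all genes, and for 1 member in the lower direction (Itga1), beside 2.18%. As shares of the 35 members these are 5.71% at an unadjusted p and 2.86% without overlap, and 2.86% stands for a single gene.

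The intervals say how large a difference the 7 arrays would still allow. For 32 of the 35 members, the 95% interval of the fold change lay within 0.5 log2 units of 0 on both sides. The 3 exceptions were Itga5, Itgam and Itgb2. All 10 laminin chains were among the 32. The labels number the samples but do not tie a number to a litter, and the p-values measure the spread between these 7 arrays alone. Since whole tissue was measured, fewer cells of a type and less RNA per cell cannot be told apart for any member.

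**Figure D1:**
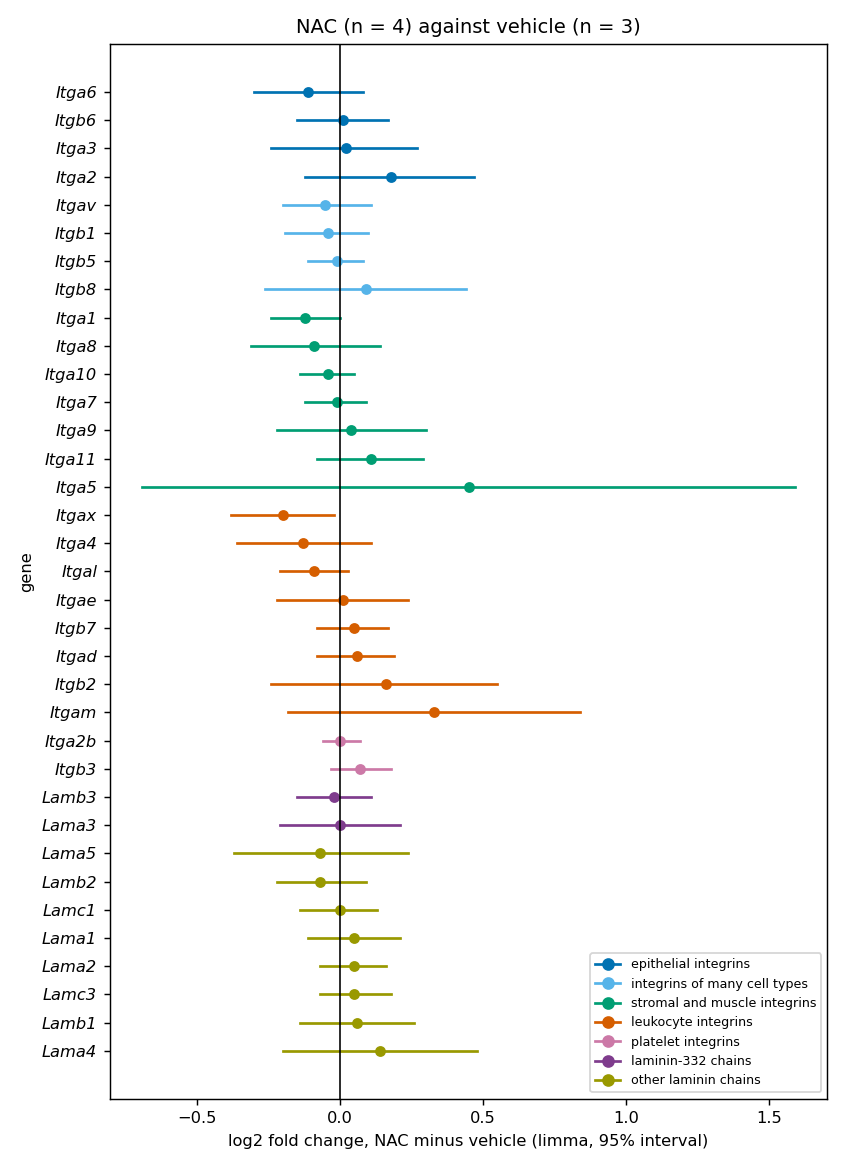
Log2 fold change of each of the 35 members, NAC (n = 4) minus vehicle (n = 3), on the horizontal axis, with points for the estimate and bars for the 95% interval from limma, grouped by class. Most points lie close to 0, the interval of Itga5 is the widest at -0.69 to 1.59, and those of Itga1 and Itgax lie below 0.

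The spread of the members between arrays was near that of all genes, with a median pooled SD of 0.10 beside 0.08. Their median range over the 7 arrays was 0.29, beside 0.25 for all genes, whereas their median fold change without regard to sign was 0.06, beside 0.05 for all genes. NAC replicate 3 held the highest value for 10 members and the lowest for 9. That is 28.6% and 25.7% of members, beside 14.8% and 14.7% of all genes. The 10 members were 5 laminin chains (Lama1, Lama4, Lamb1, Lamb3 and Lamc3) and 5 integrin chains (Itga2b, Itga8, Itga9, Itgad and Itgb3). NAC replicate 2 held the lowest value for another 9 members, among them Itga6, Lama3 and Lama4, and the highest for 5, among them Itga2, Itga3 and Itga5. NAC replicate 1 was highest for 6 members, among them Itga6, Lama3, Itgam and Itgb2.

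Leaving out a NAC array must lower the fold changes of members highest on it and raise those of members lowest on it. Without NAC replicate 3, the members that were highest on it thus had lower fold changes. They were then 0.00 for Lamb1, 0.01 for Lama1, 0.05 for Lama4, -0.05 for Lamb3, 0.04 for Lamc3, 0.04 for Itgb3, 0.03 for Itgad, -0.17 for Itga8, -0.06 for Itga9 and -0.00 for Itga2b. Those that were lowest on it had higher fold changes, at 0.10 for Itga3, 0.16 for Itgb8, 0.02 for Lama5, 0.05 for Itgb6, 0.07 for Itgb7, 0.00 for Itgb5, -0.02 for Itgav, -0.07 for Itgal and -0.16 for Itgax. The sign turned for Itga2b, Itga9, Itgb5 and Lama5.

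**Figure D2:**
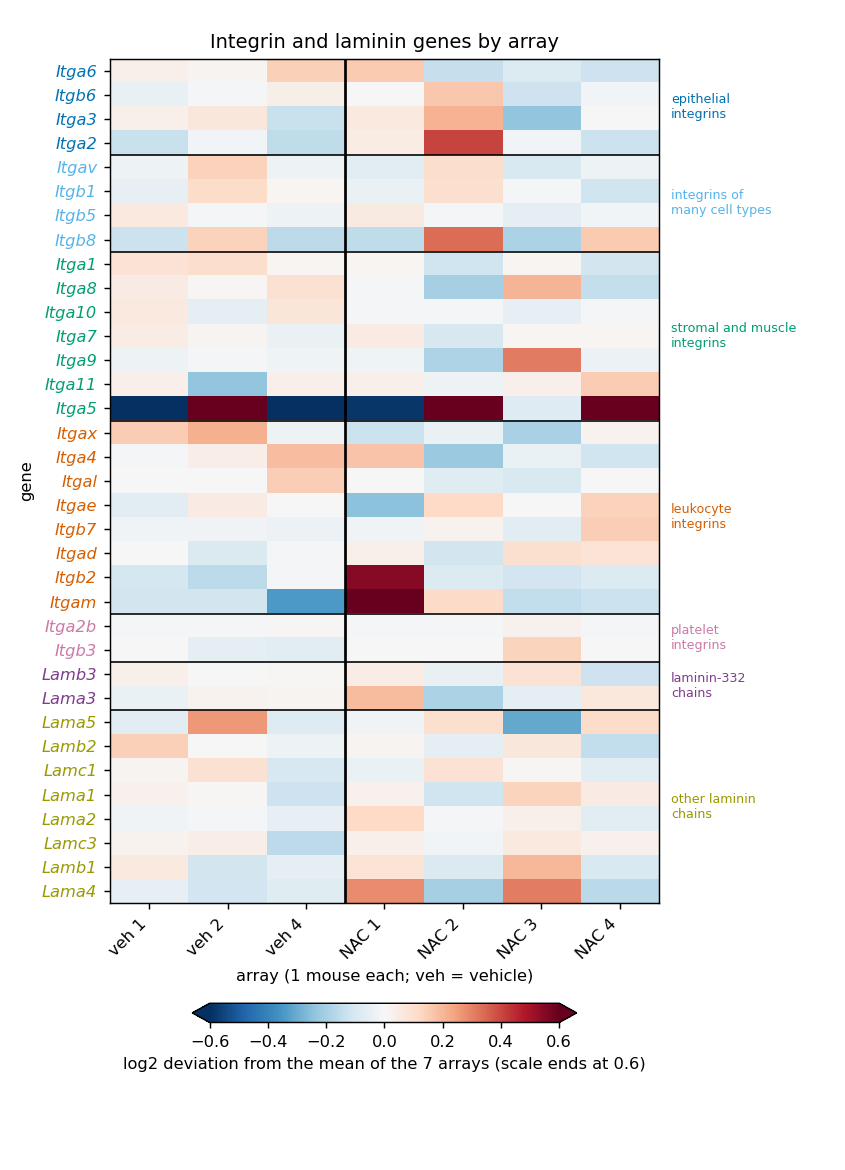
Deviation of each member's log2 value (rows, grouped by class) from its mean over the 7 arrays, for 3 vehicle and 4 NAC arrays (columns), with the colour scale ending at 0.6 above and below 0. No class has one colour over all NAC arrays and the other over all vehicle arrays, and Itga5 is high on vehicle replicate 2 and on NAC replicates 2 and 4.

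Promoter sequences are shown for 3 members on which the results below turn: Itgam and Itgax, neighbours on chromosome 7 whose differences had opposite signs, and Itga5, the member that varied most. Each is the 250 bases before the transcript start in the RefSeq promoter table (GRCm38.p6), 5′ to 3′ on the gene's strand: chr7:128062390-128062639 (plus) for Itgam, chr7:128129300-128129549 (plus) for Itgax and chr15:103366792-103367041 (minus) for Itga5. Capitals mark matches on either strand to GAGGAA (the PU box of ETS factors), TGACTCA (the AP-1 site) and GGGCGG (the GC box), none of which overlap in these sequences. The end of the Itgax stretch lies within the gene's span as the RefSeq gene table gives it.
Itgam: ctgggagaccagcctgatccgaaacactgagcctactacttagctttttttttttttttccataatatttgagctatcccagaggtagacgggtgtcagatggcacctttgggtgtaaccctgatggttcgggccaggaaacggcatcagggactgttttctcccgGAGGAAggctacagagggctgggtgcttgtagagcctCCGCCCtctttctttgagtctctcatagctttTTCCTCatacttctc
Itgax: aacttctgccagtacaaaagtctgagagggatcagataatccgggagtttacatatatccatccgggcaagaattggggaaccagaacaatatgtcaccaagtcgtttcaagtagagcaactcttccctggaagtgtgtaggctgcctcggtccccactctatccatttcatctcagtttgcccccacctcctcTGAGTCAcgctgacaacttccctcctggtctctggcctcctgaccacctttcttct
Itga5: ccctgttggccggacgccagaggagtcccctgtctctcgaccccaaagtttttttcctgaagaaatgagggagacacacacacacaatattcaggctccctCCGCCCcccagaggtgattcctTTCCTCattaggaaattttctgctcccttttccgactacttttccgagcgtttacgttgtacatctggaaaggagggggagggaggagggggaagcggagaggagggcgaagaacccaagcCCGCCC
Itgam held 2 PU boxes and 1 GC box, Itgax 1 AP-1 site alone, and Itga5 1 PU box and 2 GC boxes. Of all 32851 RefSeq promoters of this length, 23.3% held GAGGAA, 4.46% TGACTCA and 32.7% GGGCGG. RefSeq entries were found for 23 of the 35 members, 26 in all, of which 13, 1 and 9 held these letters. A match is a description of the letters only.

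The epithelial integrins showed no shared direction. Itga6, the laminin-binding alpha chain of basal cells, stood at 9.84, 9.83 and 9.95 on vehicle replicates 1, 2 and 4, and at 9.97, 9.67, 9.73 and 9.69 on NAC replicates 1 to 4. On 3 NAC arrays Itga6 was below every vehicle array, and on NAC replicate 1 it was above them all, so the groups overlapped. Its fold change was -0.11 (SE 0.08, 95% interval -0.30 to 0.08, limma adjusted p = 0.827), and -0.18 without NAC replicate 1.

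The basal cell keratins Krt5, Krt14, Krt15 and Krt17 were highest on that array, as Itga6 was. Krt5, a keratin of basal cells, was at 8.96, 8.48 and 9.14 with vehicle and at 9.40, 8.37, 9.23 and 8.79 with NAC. The list of 5 basal markers lay 0.34 above its mean on NAC replicate 1, -0.23 from it on NAC replicate 2 and between -0.22 and 0.14 on the other arrays. Of its genes, 4 had a higher mean with NAC and 1 a lower one, with a median fold change of 0.08. Trp63, the basal transcription factor, lay between 8.50 and 9.04. It was the gene with the lower mean (fold change -0.07) and was highest on vehicle replicate 1. On NAC replicate 3 the basal list lay 0.14 above its mean, whereas Itga6 was at 9.73, below every vehicle array. The list of 6 luminal markers stayed within -0.06 and 0.06 of its mean on every array. The part of the basal cell share in the values of Itga6 was not tested.

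Itga2, the alpha chain of a collagen and laminin receptor, was at 7.02, 7.13 and 7.00 with vehicle and at 7.19, 7.56, 7.13 and 7.02 with NAC. NAC replicate 2 was the highest array, and NAC replicate 4 lay within the vehicle range. The fold change was 0.18 (SE 0.12, 95% interval -0.12 to 0.47, limma adjusted p = 0.827), and 0.07 without NAC replicate 2. Itga3, the other main laminin-binding alpha chain of epithelium, was at 10.24, 10.28 and 10.08 with vehicle and at 10.27, 10.42, 9.97 and 10.21 with NAC. Its highest and lowest values were both NAC arrays, and the fold change was 0.02 (SE 0.11, limma adjusted p = 0.977), against 0.10 without NAC replicate 3. Itgb6, which with alpha V activates latent TGF-beta at epithelial surfaces, had a fold change of 0.01 (SE 0.07) and a range of 0.28 over the 7 arrays. Over the 4 epithelial integrins, 3 were higher and 1 lower with NAC, with a median of 0.01.

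The measured chains of laminin-332, the anchoring laminin of hemidesmosomes, had near equal means in both groups. Lama3 was at 8.62, 8.68 and 8.67 with vehicle and at 8.85, 8.47, 8.60 and 8.72 with NAC. The NAC arrays lay on both sides of the vehicle arrays, with SDs of 0.16 (n = 4) and 0.03 (n = 3), and the fold change was 0.00 (SE 0.09, 95% interval -0.21 to 0.21, limma adjusted p = 1.0). Lama3 was highest on NAC replicate 1 and lowest on NAC replicate 2, as were Itga6, Krt5 and Krt15. The other basal markers differed: Krt14 and Krt17 were lowest on NAC replicate 4, and Trp63 was highest on vehicle replicate 1. Lamb3 was at 7.84, 7.81 and 7.82 with vehicle and at 7.86, 7.77, 7.90 and 7.69 with NAC. It also spread wider with NAC than with vehicle, around a fold change of -0.02 (SE 0.05, limma adjusted p = 0.934).

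Of the chains that many cell types carry, Itgb8 ranged over 0.53 between arrays, Itgb1 and Itgav over 0.23 and Itgb5 over 0.11. Itgb1, the beta chain shared by most matrix receptors, was at 10.38, 10.54 and 10.44 with vehicle and at 10.39, 10.52, 10.42 and 10.31 with NAC, with a fold change of -0.04 (SE 0.06, limma adjusted p = 0.886). Itgav, the alpha chain of the vitronectin and TGF-beta receptors, was at 9.79, 9.96 and 9.79 with vehicle and at 9.75, 9.93, 9.73 and 9.79 with NAC, with a fold change of -0.05 (SE 0.06, limma adjusted p = 0.883). Replicate 2 was the highest array of its group for both chains. It was so for Itgb8, a partner of alpha V, as well, at 8.47, 8.73 and 8.44 with vehicle and 8.44, 8.93, 8.41 and 8.75 with NAC. The fold change of Itgb8 was 0.09 (SE 0.15, limma adjusted p = 0.902), and 0.16 without NAC replicate 3. Itgb5, another partner of alpha V, had a fold change of -0.01 (SE 0.04). The median of the 4 chains was -0.03, with 1 higher and 3 lower.

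The integrins of stroma and muscle held the one member whose groups did not overlap and the one that varied most. Itga1, the alpha chain of a collagen receptor of smooth muscle and fibroblasts (chr13:114958079-115101964), was at 8.84, 8.86 and 8.76 with vehicle and at 8.76, 8.63, 8.76 and 8.64 with NAC. All 4 NAC arrays were below all 3 vehicle arrays, but the nearest pair was only 0.002 apart. The fold change was -0.12 (SE 0.05, 95% interval -0.24 to -0.00, limma adjusted p = 0.827), and the groups overlapped after a further quantile normalization. Of the 5 smooth muscle markers, 0 had a higher and 5 a lower mean with NAC, with a median fold change of -0.05. Their list lay between -0.02 and 0.12 from its mean on the vehicle arrays and between -0.10 and 0.04 on the NAC arrays. Of the 5 fibroblast markers, 4 had a higher and 1 a lower mean with NAC, with a median fold change of 0.03. Whether either list has a part in the value of Itga1 was not tested.

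Itga5, the alpha chain of the main fibronectin receptor (chr15:103344286-103366791), is described because its values ranged over 1.56, the most of any member, and was chosen after its values were seen. It was at 7.64, 9.20 and 7.80 with vehicle and at 7.89, 9.20, 8.39 and 9.16 with NAC. High values occurred under both treatments, on vehicle replicate 2 and on NAC replicates 2 and 4. The group means were 8.21 ± 0.86 (SD, n = 3) and 8.66 ± 0.64 (SD, n = 4), and the fold change of 0.45 was smaller than its SE of 0.48 (limma adjusted p = 0.857). It was 0.94 without vehicle replicate 2, 0.70 without NAC replicate 1, 0.26 without NAC replicate 2, 0.28 without NAC replicate 4, 0.24 without vehicle replicate 4 and 0.16 without vehicle replicate 1.

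Other adhesion and inflammation genes were high on the same arrays as Itga5. Icam1, the endothelial ligand of beta 2 integrins, was at 7.50, 8.54 and 7.58 with vehicle and at 7.48, 8.63, 7.73 and 8.54 with NAC. Thbs1, the matrix protein thrombospondin, was at 9.07, 10.73 and 8.77 with vehicle and at 9.53, 10.49, 8.89 and 10.60 with NAC. For Ccl2, a chemokine that draws monocytes, the values were 6.48, 7.88 and 6.47 with vehicle and 6.33, 8.33, 6.68 and 7.90 with NAC. In all 3 genes vehicle replicate 2 and NAC replicates 2 and 4 held the highest values, and Icam1 and Thbs1 had fold changes of 0.22 (SE 0.38) and 0.36 (SE 0.60). The fibronectin gene Fn1 did not follow, at 10.12, 10.58 and 10.27 with vehicle and 10.88, 10.10, 10.36 and 10.58 with NAC. The neutrophil list lay 0.26, 0.57 and 0.03 above its mean on vehicle replicate 2, NAC replicate 2 and NAC replicate 4, and below it on the other arrays, at -0.33 to -0.10. Its part in the values of Itga5 was not tested.

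Of the other stromal and muscle chains, Itga11, a collagen receptor of fibroblasts, was at 6.08, 5.81 and 6.08 with vehicle and at 6.08, 6.02, 6.08 and 6.21 with NAC. Apart from a low vehicle replicate 2 and a high NAC replicate 4 its values were nearly level, with a fold change of 0.11 (SE 0.08, limma adjusted p = 0.827). Itga10, the collagen receptor chain of cartilage, was at 6.78, 6.66 and 6.79 with vehicle and at 6.71, 6.71, 6.67 and 6.71 with NAC. Vehicle replicate 2 was its lowest array, and the fold change was -0.04 (SE 0.04, limma adjusted p = 0.844). Itga8, a chain of smooth muscle and mesenchyme, had a fold change of -0.09 (SE 0.09) with NAC replicate 3 as its highest array at 7.37, and -0.17 without that array. Itga9, which binds tenascin and osteopontin, was at 7.63 on NAC replicate 3 and between 7.13 and 7.31 on the others, so its fold change of 0.04 (SE 0.11) became -0.06 without it. Itga7, the laminin receptor of muscle, had a fold change of -0.01 (SE 0.04). The median of the 7 chains was -0.01, with 3 higher and 4 lower.

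**Figure D3:**
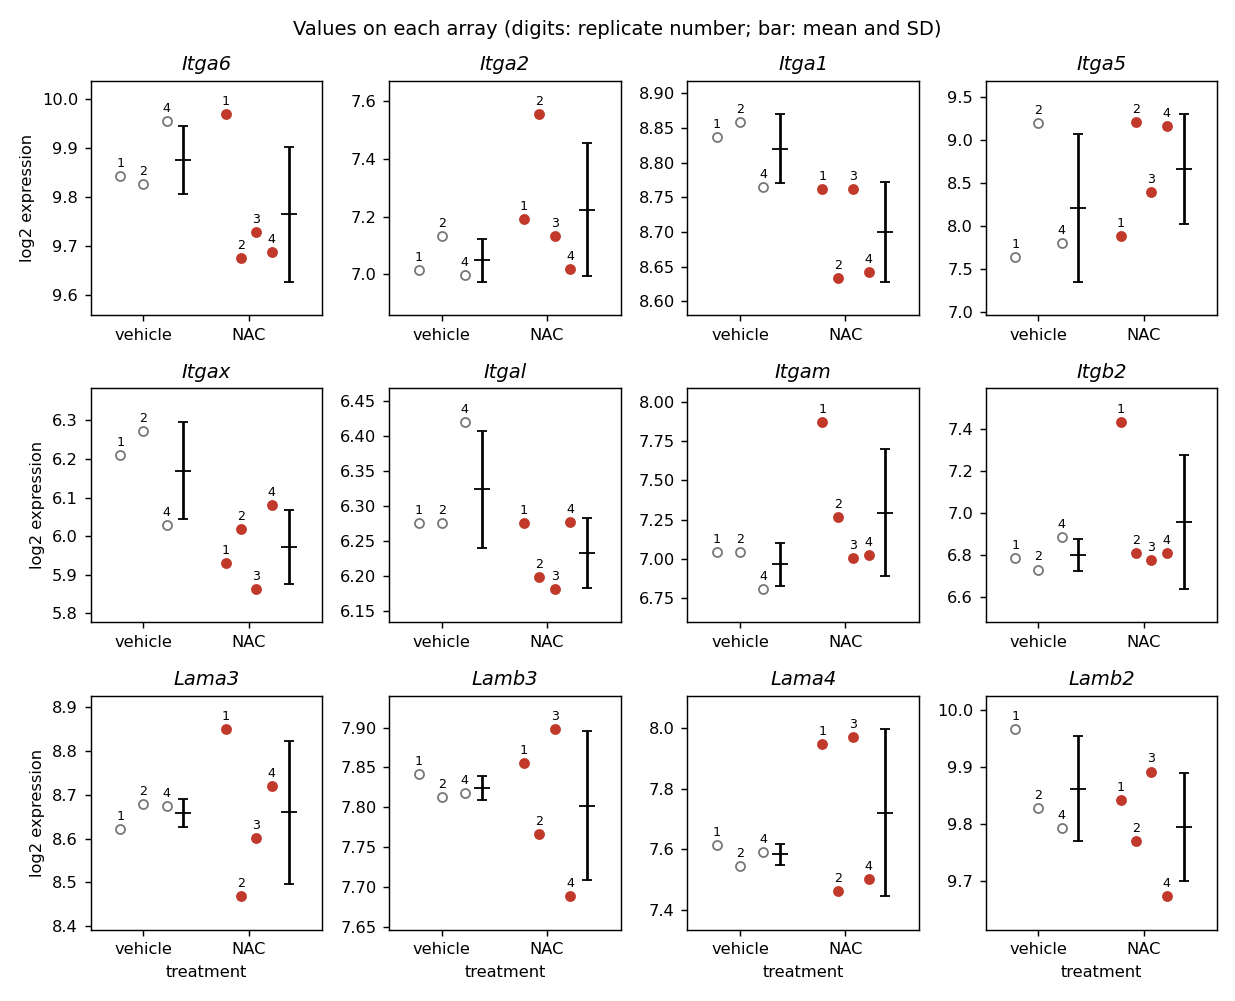
Log2 values of 12 members on each array, vehicle as open grey points (n = 3) and NAC as filled red points (n = 4), with the replicate number beside each point and bars for the mean and SD. Itga1 is the panel in which the groups do not overlap, and in the panels of Itgam and Itgb2 NAC replicate 1 lies above the other arrays.

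Among the leukocyte integrins, Itgax was lower and Itgam and Itgb2 were higher on average with NAC, and none passed the adjusted threshold. Itgax encodes CD11c, the alpha chain of dendritic cells and tissue macrophages (chr7:128129526-128150657). It was at 6.21, 6.27 and 6.03 with vehicle and at 5.93, 6.02, 5.86 and 6.08 with NAC. On 3 NAC arrays it was below every vehicle array, whereas NAC replicate 4 was above vehicle replicate 4. The fold change was -0.20 (SE 0.08, 95% interval -0.38 to -0.02, limma adjusted p = 0.827), and between -0.27 and -0.15 when 1 array was left out. Itgax had the lowest fold change of the 35 members. It was also a dim gene: its mean lay below the 40th percentile of all genes.

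Markers of dendritic cells showed no shared direction. Of 7 dendritic genes, 4 were higher and 3 lower on average with NAC, with a median of 0.00. Clec9a, a receptor of the dendritic cells that take up dead cells, was at 5.56, 5.49 and 5.37 with vehicle and at 5.32, 5.32, 5.28 and 5.16 with NAC, and its groups did not overlap. Its fold change was -0.21 (SE 0.06, limma adjusted p = 0.827). The mean of the dendritic list lay between -0.05 and 0.10 of its 7-array mean on vehicle arrays and between -0.04 and 0.01 on NAC arrays. The part of dendritic cells in the values of Itgax was not tested.

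Itgam encodes CD11b, the alpha chain of macrophages and neutrophils (chr7:128062640-128118491). It was at 7.04, 7.04 and 6.81 with vehicle and at 7.87, 7.27, 7.00 and 7.03 with NAC. NAC replicates 1 and 2 were above all vehicle arrays and the other two within their range. The fold change was 0.33 (SE 0.21, 95% interval -0.18 to 0.84, limma adjusted p = 0.827), and 0.13 without NAC replicate 1. Itgb2, the beta chain with which Itgam, Itgal, Itgax and Itgad pair, was at 6.79, 6.73 and 6.89 with vehicle and at 7.44, 6.81, 6.78 and 6.81 with NAC. Apart from NAC replicate 1, every array lay within 6.73 and 6.89. Its fold change was 0.16 (SE 0.17, 95% interval -0.24 to 0.55, limma adjusted p = 0.857), and -0.00 without NAC replicate 1.

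Several macrophage genes were high on the same array. Adgre1, which encodes the macrophage antigen F4/80, was at 6.95, 6.77 and 6.95 with vehicle and at 7.91, 6.90, 6.95 and 6.72 with NAC. C1qa, a complement chain made by tissue macrophages, was at 7.78, 7.83 and 7.91 with vehicle and at 8.26, 7.82, 7.96 and 7.91 with NAC. Both were highest on NAC replicate 1, as were C1qb and C1qc. Csf1r and Cd68 were highest on NAC replicate 3, at 8.30 and 7.73, against 8.21 and 7.72 on NAC replicate 1. Mrc1 was highest on NAC replicate 2, at 8.13, and was at 7.43 on NAC replicate 1. The list of 7 macrophage genes lay 0.26 above its mean on that array and between -0.17 and 0.10 on the others. All 7 genes had a higher mean with NAC, with a median fold change of 0.15, and none of the 7 passed the adjusted threshold. Other leukocyte lists were high on these arrays too. The list of 3 B cell genes lay 0.37 above its mean on NAC replicate 1. The neutrophil list lay at -0.12 from its mean on NAC replicate 1 and 0.57 above it on NAC replicate 2. All 5 neutrophil genes had a higher mean with NAC, with a median fold change of 0.23. The part of macrophages, neutrophils or B cells in the values of Itgam and Itgb2 was not tested.

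Itgal, the alpha chain of LFA-1 on lymphocytes, was at 6.28, 6.28 and 6.42 with vehicle and at 6.28, 6.20, 6.18 and 6.28 with NAC. Several arrays of both groups were at 6.28, and the fold change was -0.09 (SE 0.05, limma adjusted p = 0.827). After a further quantile normalization it was -0.12 and the groups did not overlap. Itga4, which with beta 1 or beta 7 binds VCAM-1 and MAdCAM-1, had a fold change of -0.13 (SE 0.10). For Itgad, a further beta 2 partner whose gene lies beside Itgax (chr7:128173933-128205504), the fold change was 0.06 (SE 0.06). Itgae, the alpha chain of intraepithelial T cells, and its partner Itgb7 had fold changes of 0.01 (SE 0.10) and 0.05 (SE 0.05). Over the 8 leukocyte integrins 5 were higher and 3 lower with NAC, with a median of 0.03. On NAC replicate 1 the class lay 0.13 above its mean, and on the other arrays between -0.07 and 0.01.

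**Figure D4:**
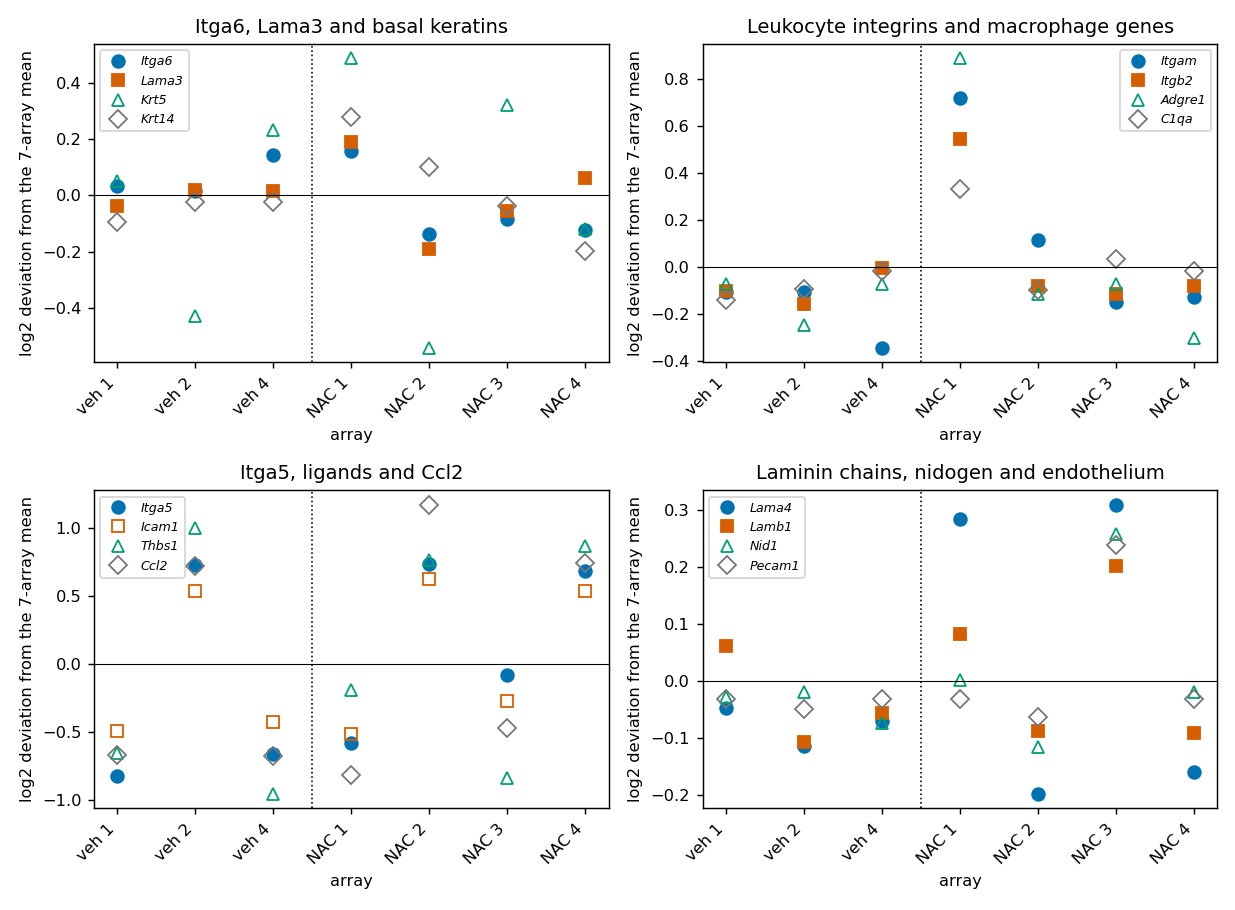
Deviation of log2 values from the 7-array mean on each array (3 vehicle, 4 NAC), in 4 panels that set members (filled points) beside genes that are no members (open points). Itgam and Itgb2 are highest on NAC replicate 1 with Adgre1 and C1qa, Itga5 is high on vehicle replicate 2 and NAC replicates 2 and 4 with Icam1, Thbs1 and Ccl2, and Lama4 and Lamb1 are highest on NAC replicate 3 with Nid1 and Pecam1.

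The platelet integrin was measured through both chains of the fibrinogen receptor. Itgb3, which also pairs with alpha V in vessels, was at 6.73, 6.67 and 6.66 with vehicle and at 6.73, 6.73, 6.87 and 6.73 with NAC. It was highest on NAC replicate 3, and its fold change was 0.07 (SE 0.05, limma adjusted p = 0.827), or 0.04 without that array. Itga2b was at 6.68, 6.68 and 6.69 with vehicle and at 6.68, 6.68, 6.71 and 6.68 with NAC, with a fold change of 0.00 (SE 0.03, limma adjusted p = 0.985). All 7 values of Itga2b lay between 6.68 and 6.71.

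The other laminin chains were each within 0.14 of equal means. Lama4, the alpha chain of vessel and muscle basement membranes, was at 7.61, 7.55 and 7.59 with vehicle and at 7.95, 7.46, 7.97 and 7.50 with NAC. NAC replicates 1 and 3 were above all vehicle arrays and NAC replicates 2 and 4 below them. The fold change was 0.14 (SE 0.14, 95% interval -0.20 to 0.48, limma adjusted p = 0.857), and 0.05 without NAC replicate 3 or 0.06 without NAC replicate 1. Lamb1, the beta chain of the common laminins, was at 8.0, 7.83 and 7.88 with vehicle and at 8.02, 7.85, 8.14 and 7.85 with NAC. It was highest on NAC replicate 3 and next highest on NAC replicate 1. Its fold change was 0.06 (SE 0.08), and 0.00 without NAC replicate 3.

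Most of the endothelial genes and Nid1 were also high on NAC replicate 3. Pecam1, an endothelial surface protein, was at 7.77 there and between 7.47 and 7.50 on the other arrays. Nid1, the nidogen that links laminin to collagen IV, was at 9.08 there and between 8.71 and 8.82 elsewhere, whereas the list of 17 basement membrane partners lay only 0.06 above its mean there. The list of 5 endothelial genes lay 0.23 above its mean on that array and between -0.10 and 0.00 on the others. Emcn, of the same list, was highest on NAC replicate 2, at 7.92, against 7.75 on NAC replicate 3. NAC replicate 3 is the array on which lung, fat and skeletal muscle genes were high, and their part in the values of Lama4 and Lamb1 was not tested.

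Lamb2, the beta chain of mature basement membranes, was at 9.97, 9.83 and 9.79 with vehicle and at 9.84, 9.77, 9.89 and 9.67 with NAC. Its fold change was -0.07 (SE 0.07, limma adjusted p = 0.847), within the spread of both groups. Lamc3, a gamma chain, was at 7.91, 7.93 and 7.74 with vehicle and at 7.92, 7.87, 7.95 and 7.92 with NAC. Only vehicle replicate 4 stood below the rest, and the fold change was 0.05 (SE 0.05, limma adjusted p = 0.849). Lama5, the main alpha chain under epithelium, was at 9.65, 9.98 and 9.64 with vehicle and at 9.70, 9.82, 9.42 and 9.83 with NAC, with a fold change of -0.07 (SE 0.13), or 0.02 without NAC replicate 3. The fold changes of Lama1 and Lama2 were both 0.05 (SE 0.07 and 0.05), and that of Lamc1, the gamma chain of most laminins, was -0.00 (SE 0.06). Of these 8 chains 5 were higher and 3 lower with NAC, with a median of 0.05.

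Of the genes that work with integrins and laminins, 0 in any list passed the adjusted threshold, 0 had an unadjusted p under 0.05 and 0 had groups that did not overlap. Of all genes, 1.89% were higher and 2.53% lower at an unadjusted limma p under 0.05. Groups did not overlap for 1.29% in the higher and 2.18% in the lower direction. Of 17 partners in the basement membrane 10 were higher and 7 lower with NAC (median 0.00), led by the collagen IV chain Col4a1 at 0.09 (SE 0.04), the matricellular gene Sparc at 0.17 (SE 0.10) and Col4a3 at 0.08 (SE 0.06). Of 6 genes of hemidesmosomes and laminin receptors 4 were higher and 2 lower (median 0.03), with the laminin alpha 5 receptor Bcam at 0.12 (SE 0.06), the linker plectin (Plec) at 0.06 (SE 0.05) and dystroglycan (Dag1) at -0.04 (SE 0.04). The adaptors and kinases inside the cell were split 10 to 9 (median 0.00). Paxillin (Pxn) and Lims1 were both at -0.07 (SE 0.04), and the integrin-linked kinase Ilk was at 0.07 (SE 0.04).

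Among ligands, 8 of 9 matrix proteins that integrins bind were higher with NAC and 1 was lower, with a median fold change of 0.16. Vitronectin (Vtn) was at 0.17 (SE 0.10), tenascin C (Tnc) at 0.29 (SE 0.18) and Ccn1 at 0.16 (SE 0.13). By array the list deviated from its mean by -0.16, 0.17 and -0.27 with vehicle and by -0.03, 0.13, -0.03 and 0.19 with NAC. Vehicle replicate 2 thus lay with NAC replicates 2 and 4, the arrays on which Itga5 was high. Of 10 surface ligands of leukocyte integrins 7 were higher and 3 lower (median 0.06), with Icam5 at 0.18 (SE 0.09), the junctional Jam3 at 0.11 (SE 0.08) and the mucosal addressin Madcam1 at 0.08 (SE 0.07).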

How the data were processed

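RNA of Nkx3.1-/- prostates was measured on 7 arrays, 1 mouse each as the methods give it, and arrays were grouped by their labels. The deposited log2 values came from the authors' use of affy in R. Per the methods this comprised quantile scaling, the RMA background step and a median polish over each probe set's perfect-match probes. Besides affy and RMA, limma is named in the submitters' processing notes. The table has 0 columns without a sample. Of 20696 probe sets, 18950 name 1 gene in the platform annotation, 678 several and 1068 none. Symbols were updated through Entrez identifiers (18922 found in GRCm38.p6), and probe sets naming several genes or none were left out. The probe set with the highest mean was kept per gene, giving 18938 genes, and each of the 35 members has 1 probe set. Signal over background cannot be read from summarized values. In 7568 genes (40.0%) and 4 members, at least 3 arrays hold the same value (within 6 decimals), which limits what small differences show.

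NAC and vehicle were compared by a two-sided test without covariates in limma 3.58.1 (R 4.3.3; functions lmFit and eBayes), with Benjamini-Hochberg adjustment over all genes, and the fit was checked on simulated data. Precision is limited by having 7 arrays. The members, classes, partner lists and marker lists were chosen with earlier results of these data known. Values on every array are given for Itga6, Itgax, the chains of laminin-332 and, per class, the 3 members with the smallest unadjusted p and members whose groups do not overlap. In partner lists the 3 genes with the smallest unadjusted p are named. Itga5, Lamb1, Lama5 and all other genes with values were named after their values were seen. A list is described by its counts, its median and its mean deviation per array from the 7-array mean, with no test.

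As alternatives, each array was left out, the replicate number was used as a block, and limma was run with array weights or with a robust variance trend. Arrays were also centred on their medians or quantile-normalized again. Dim genes (mean below the 40th percentile) were dropped, and genes were taken as the median of their probe sets or with all named probe sets kept. RefSeq promoters (GRCm38.p6) were searched for 3 motifs on both strands.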

Additional observations from a re-analysis of the deposited data

Results flagged for a closer look

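Within the 4 NAC arrays, 1 array was far from the other 3 for 7 of the 55 genes looked at, 4 of them members. Chance sets apart about 1 in 20 such groups, but some of these genes were named for their values, so their number is only a description. The measure is the gap to the nearest array divided by the range of the 4, set against Dixon's critical value at the 95% level. Itgb2 on NAC replicate 1 was at 7.44, with the nearest array at 6.81 (0.95). NAC replicate 3 stood apart for Itgb3, at 6.87 against 6.73 (0.97), for Itga2b, at 6.71 against 6.68 (1.0), and for Itga10, at 6.67 against 6.71 (0.88). On the same array Sftpc was at 10.51 against 5.26 (0.98) and Pecam1 at 7.77 against 7.50 (0.90). For Col4a1, NAC replicate 4 was at 7.95 and the nearest array at 7.94 (1.0), and here, as for Itga2b, the other 3 values were equal, which alone gives the value of 1.0. Groups of 3 vehicle arrays were not looked at in this way.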

How the results depend on the processing

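No member had an adjusted p under 0.05 under any of the 15 alternatives, with 0.667 as the smallest, and over all genes 1 passed without NAC replicate 4 and 0 otherwise. Members lower at an unadjusted p under 0.05 numbered 1 with array weights (2.95% of all genes), 1 without dim genes (3.64%) and 0 to 3 with 1 array left out (1.56% to 4.24%; 0 without vehicle replicate 1, and Itga1, Itga4 and Itga6 without NAC replicate 1), and members higher 0 to 1 (1.37% to 2.40%). Members whose groups did not overlap numbered 1 higher after quantile normalization again (Lama2; 2.67% of all genes), where Itgal took the place of Itga1 as the 1 lower (3.46%). With 1 array left out they numbered 0 to 2 higher (1.89% to 4.85%) and 1 to 3 lower (3.00% to 7.28%). Dropping dim genes took out 5 members, namely Itgax, Itgal, Itgad, Itgae and Itga11. The leukocyte median was 0.10 without dim genes and -0.017 to 0.032 with 1 array left out. The median of all members then ran from -0.01 to 0.024 and that of the integrins from -0.013 to 0.01.

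Of 520 member values under alternatives 38 had the other sign, in 15 members, none of which had a fold change over 0.16 in size. The 520 include alternatives that leave every fold change as it was. These are the robust variance trend and, with 1 probe set per member, both probe set alternatives. The replicate block gives the same fold changes as leaving out NAC replicate 3, so those enter the counts again. Signs turned with array weights for Itgae (-0.031) and Itgb6 (-0.001). After quantile normalization again they turned for Itga2b (-0.016), Itgae (-0.021), Itgb5 (0.009), Lamb3 (0.001) and Lamc1 (0.022). With 1 array left out the ranges were -0.004 to 0.007 for Itga2b, -0.048 to 0.101 for Itga3, -0.037 to 0.017 for Itga7, -0.06 to 0.106 for Itga9, -0.037 to 0.091 for Itgae, -0.09 to 0.008 for Itgav, -0.003 to 0.217 for Itgb2, -0.034 to 0.011 for Itgb5, -0.042 to 0.053 for Itgb6, -0.012 to 0.181 for Itgb8, -0.061 to 0.066 for Lama3, -0.126 to 0.042 for Lama5, -0.054 to 0.016 for Lamb3, -0.055 to 0.039 for Lamc1 and -0.008 to 0.09 for Lamc3. The cause was not tested.

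Vehicle and NAC share replicate numbers 1, 2 and 4, and the deviations of same-numbered arrays correlated at 0.212, 0.286 and -0.067. So few correlations cannot decide whether the numbers mark pairs. The labels do not tie a number to a litter, and the numbers were not taken as pairs. Vehicle replicate 1 correlated best with NAC replicate 1, vehicle replicate 2 with NAC replicate 2 and vehicle replicate 4 with NAC replicate 3. With the replicate number as a block, which leaves NAC replicate 3 without weight, 2 members were lower at an unadjusted p under 0.05 (Itga1 and Itga8), beside 2.60% of all genes, and 0 passed the adjusted threshold. Under the block the signs turned for Itga2b (-0.004), Itga9 (-0.06), Itgb5 (0.002) and Lama5 (0.024).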
